A study of Drosophila melanogaster with 2 samples.

Results

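Insulator and architectural proteins bind chromatin at domain borders and at promoters, and 10 genes that code for them in Drosophila melanogaster were followed through a ChIP-seq experiment on CG9948, an uncharacterized fly protein. The genes are Chro, Cp190, M1BP, BEAF-32, CTCF, su(Hw), mod(mdg4), pita, Dref and pzg, out of 13945 protein-coding genes in the annotation. A peak was given to a gene when its summit lay in the gene body or within 1 kb of any of the gene's transcription start sites (TSSs). The genes were chosen with their peaks in these data known, and selected on the signal of those peaks in part, so the presence and strength of a peak at them is a description and was not tested. The chromatin came from whole pupae aged 24 h of a transgenic line that stably expresses CG9948 with GFP at its C terminus, and an antibody against GFP was used. There were 2 samples of this 1 group, biological replicates 1 and 3, with no untagged or untreated group analysed here. Whole pupae mix many cell types, and peaks cannot be assigned to any of them.

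Several of these proteins read DNA directly. BEAF-32 and Dref recognise related short sequences, M1BP binds a core promoter element called motif 1, and CTCF, su(Hw) and pita are zinc finger proteins. Cp190 and mod(mdg4) carry BTB domains and are brought to DNA by such proteins as cofactors. Chro, a chromodomain protein, and pzg, also called Z4, are found together in the decondensed interbands of polytene chromosomes. All of this is background and not a result of the present data.

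The sequences under or next to 6 of the peaks are shown first. At Cp190 (chr3R:15275346-15275446), M1BP (chr3R:8731868-8731968) and su(Hw) (chr3R:14308861-14308961) they are the bases within 50 bp of the IDR summit, which lie outside every annotated exon. At Chro (chr3L:22878985-22879088), CTCF (chr3L:7356714-7356808) and Dref (chr2L:9967230-9967312) the summit lay in an annotated exon, so the exon-free stretch of the peak next to it is shown instead. The summit motif counts and A + T contents below use the bases within 50 bp of a summit. At Chro, CTCF and Dref these are not the stretch printed. All printed sequences are the plus strand of dm6, read 5′ to 3′ from the RefSeq release 6 genome. Capitals mark matches on either strand to the motifs searched.
Cp190: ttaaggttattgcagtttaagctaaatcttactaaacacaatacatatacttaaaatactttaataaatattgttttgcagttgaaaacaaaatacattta
M1BP: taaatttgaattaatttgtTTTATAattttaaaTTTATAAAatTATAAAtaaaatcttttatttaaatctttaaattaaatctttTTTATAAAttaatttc
su(Hw): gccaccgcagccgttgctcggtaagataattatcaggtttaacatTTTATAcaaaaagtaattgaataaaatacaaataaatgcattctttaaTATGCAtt
Chro: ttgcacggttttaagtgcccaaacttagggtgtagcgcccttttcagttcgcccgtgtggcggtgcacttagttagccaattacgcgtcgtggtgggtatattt
CTCF: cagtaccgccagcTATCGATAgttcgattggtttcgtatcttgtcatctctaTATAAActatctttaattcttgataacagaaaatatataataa
Dref: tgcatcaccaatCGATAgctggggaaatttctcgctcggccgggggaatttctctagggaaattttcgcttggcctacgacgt
The stretch at M1BP is almost entirely A and T, with 6 overlapping or neighbouring matches to TATAAA. That at su(Hw) holds TGCATA, the core of the site that the su(Hw) protein itself binds. Upstream of CTCF lies a full DRE (TATCGATA, the element bound by Dref), in the flank of the peak and not within 50 bp of its summit. The bases between Dref and RpL13 hold 1 CGATA, which BEAF-32 binds and which is also contained in the DRE.

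Each replicate list and the list from pooled reads hold 30000 peaks, and the optimal IDR list holds 7637. IDR (irreproducible discovery rate) filtering is meant to keep peaks that are reproducible between replicates. An IDR peak here need not have a counterpart in both replicate lists. By the overlap rule given below, 91.1% of the IDR peaks had one in each. Signals are the authors' own values on an unstated scale, and depth is unknown because the lists hold no read counts. All 7637 IDR peaks stood in the pooled list at the same place and with the same signal. Each replicate gives 1 value per peak, so a value has no SD.

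An IDR peak was present at 9 of the 10 genes, 1 peak at each, and pita had none. By the same rule 26.0% of all protein-coding genes had an IDR peak. Since the genes were chosen with this contrast in view, nothing is read from the difference. In the pooled list all 10 had a peak against 50% of genes (6974), in replicate 1 8 of 10 against 49.6%, and in replicate 3 10 of 10 against 52.6%. Within 500 bp of a TSS of the gene itself, 8 of the 10 had an IDR summit, against 18.0% of all protein-coding genes, and the exceptions were pita and mod(mdg4). The count of 9 rested on replicate 3. Among the 7637 strongest peaks of replicate 3 alone 9 genes had a peak (26.1% of all genes), and among the 7637 strongest of replicate 1 alone 5 had one (24.6% of all genes), with BEAF-32, CTCF, su(Hw) and Dref lost.

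The interband protein gene Chro carried the strongest peak of the set. Its signal was 1406 in replicate 1, 2515 in replicate 3 and 3924 in the IDR list, where it ranked 7 of 7637. It stood at nearly the same rank in both replicates, 7 and 9 of 30000. The summit, at chr3L:22878902, lay between TSSs: 82 bp downstream of the first Chro TSS, 134 bp upstream of the second and 718 bp upstream of the third. Ssl1, which codes for a subunit of the general transcription factor TFIIH, starts on the other strand 187 bp away. Weak peaks flanked the main one, a pooled peak of signal 41.9 at 109 bp upstream of the third Chro TSS, and replicate 3 peaks of 73.1 and 27.0. Replicate 1 listed the main peak only.

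Its interband partner pzg had a much weaker peak. The signal was 109 in replicate 1, 152 in replicate 3 and 252 in the IDR list (rank 4737). The summit lay 163 bp upstream of the pzg TSS and 26 bp downstream of the nearest TSS of CG12974, which is transcribed away from it. The replicates placed this summit 94 bp apart. Replicate 3 also held a peak of 29.9, 54 bp inside pzg.

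Among the BTB cofactors, Cp190 had the second strongest peak of the set. Its signal was 681 in replicate 1, 1143 in replicate 3 and 1804 in the IDR list (rank 145), at ranks 119 and 166 of 30000 in the replicates. It was the only peak of Cp190 in each of the 4 lists. The summit lay in the gap shown above, 155 bp upstream of Cp190 and 126 bp upstream of the divergent gene CG4338, and the replicate summits were 11 bp apart.

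The peak at mod(mdg4) was not at the start of that gene. This locus makes many protein isoforms that share their first exons and differ in the last, some of which are encoded on the opposite strand and joined by trans-splicing. The annotation lists 22 transcripts from 1 TSS over 26.6 kb, and separate pre-mod(mdg4) genes for the units that supply variable exons. The peak had a signal of 482 in replicate 1, 746 in replicate 3 and 1218 in the IDR list (rank 439), and its summit at chr3R:21365437 lay 11964 bp downstream of the mod(mdg4) TSS. There it fell between the starts of pre-mod(mdg4) units on both strands. A TSS of pre-mod(mdg4)-E was 51 bp from it, with the summit just inside the unit. The TSS shared by pre-mod(mdg4)-AB, -C and -E on the same strand was 147 bp away. On the other strand, pre-mod(mdg4)-U, -V, -W, -X, -Y, -AD and -AE start together 172 bp away.

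At the mod(mdg4) TSS itself the signal stayed low. Pooled peaks of 80.1 and 32.8 lay 51 bp downstream and 182 bp upstream of it, replicate 3 had a peak of 52.5, and replicate 1 had none. All 5 of the other pooled peaks given to the gene, the upstream one included, had signals between 32.8 and 105, below the lowest IDR signal of 150. An IDR peak of signal 905 lay 1.37 kb upstream of the gene, just outside the window.

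M1BP had the strongest peak among the genes for DNA-binding proteins. The signal was 226 in replicate 1, 547 in replicate 3 and 765 in the IDR list (rank 1137). The summit lay 220 bp upstream of M1BP and 173 bp upstream of the divergent gene CG8202. The replicate summits were 74 bp apart. A second peak in replicate 3, of 25.6, lay at the far end of the gene.

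BEAF-32 was next, with an IDR signal of 320 (rank 3708) and 215 in replicate 3. Replicate 1 had no peak overlapping it. The gene has 3 TSSs, and the summit lay 102 bp upstream of the first. An antisense RNA gene, asRNA:CR42254, starts 97 bp away on the other strand. A second pooled peak of 125 lay 55 bp upstream of the third TSS and another of 38.9 lay 287 bp downstream of it. The single BEAF-32 peak of replicate 1, of 41.8, lay near that last place, 254 bp downstream of the third TSS. Replicate 3 also had a peak of 120, 74 bp upstream of the third TSS. Both replicates thus had a peak near the third TSS, with summits on either side of it. At the first TSS only replicate 3 had one.

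The remaining zinc finger genes had weak peaks or none. At su(Hw) the signal was 148 in replicate 3 and 264 in the IDR list (rank 4518), with the summit 322 bp upstream of su(Hw) and 178 bp upstream of Polr2I, a gene for an RNA polymerase II subunit. At CTCF it was 125 in replicate 3 and 173 in the IDR list (rank 6734), 99 bp inside the gene. Replicate 1 listed no peak at either gene, and its lowest listed signal was 16.3. CTCF was the weakest of the 9 and lay just above the lowest IDR signal.

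The gene pita fell below the IDR list. Its 5 pooled peaks had signals of 31.7 to 75.8, and the 4 in replicate 3 had 46.4 to 90.3. Replicate 1 had a single peak of 20.8, in a coding exon 870 bp from the nearest TSS. The strongest pooled peak, 128 bp downstream of a TSS, had a deposited −log10 q-value of 1.70, where the maximum of the list is 4.24. In replicate 3 the peak with the same summit, of signal 90.3, had a value of 4.36, the maximum of that list. The nearest IDR summit, of signal 204, lay 867 bp beyond the 3′ end of the gene.

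Among the genes with the peak in both replicate lists, Dref had the largest ratio between them. The signal of its peak was 20.9 in replicate 1, 162 in replicate 3 and 203 in the IDR list (rank 5835). The replicate ranks were 19976 and 5113 of 30000, and the replicate 3 signal was 7.74 times that of replicate 1. In replicate 1 the peak lay near the lowest signal of the list (16.3). Its deposited −log10 q-value there was 0.249, where the maximum of that list is 4.10. The ratio thus rests on a weak peak. Of the 6958 IDR peaks found in both replicate lists, 83 had a ratio at least as large. The summit lay 33 bp inside Dref and 117 bp upstream of the divergent ribosomal protein gene RpL13.

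**Figure D1:**
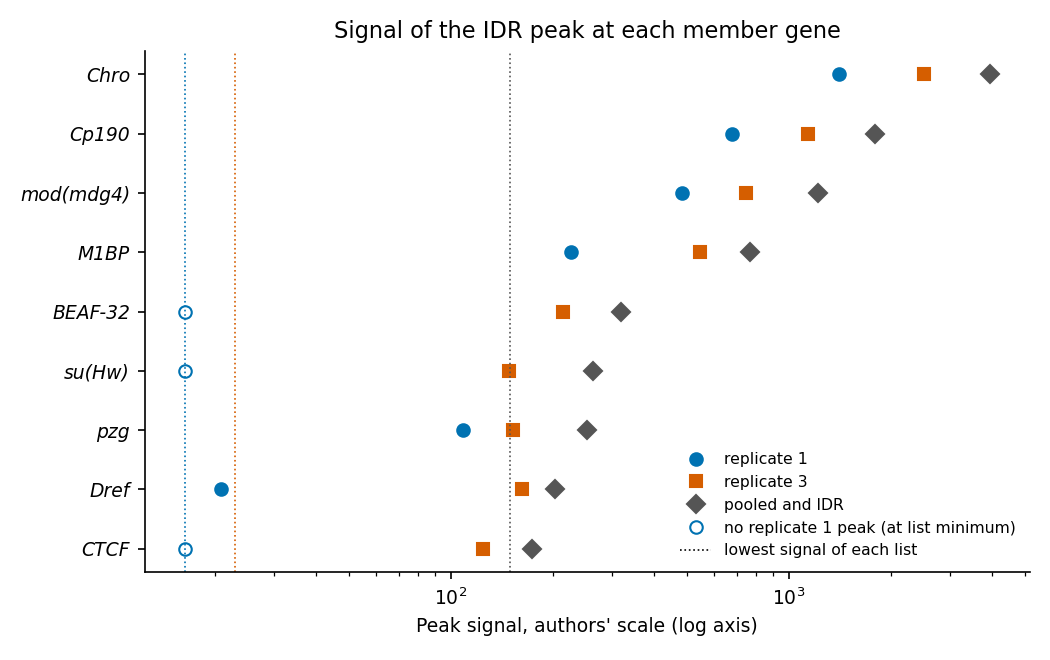
Peak signal on the authors' scale (log axis) at the 9 genes with an IDR peak, in replicate 1 (circles), replicate 3 (squares) and the pooled and IDR lists (diamonds). Open circles, drawn at the lowest replicate 1 signal of 16.3, mark BEAF-32, su(Hw) and CTCF, where replicate 1 had no overlapping peak, and dotted lines mark the lowest signal of each list.

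Laid out along each gene, the strongest pooled summit lay near the start at all genes but mod(mdg4) and pita, which has its strongest at the second of its TSSs. The lists held 23 pooled, 27 replicate 3 and 8 replicate 1 peaks at the 10 genes.

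**Figure D2:**
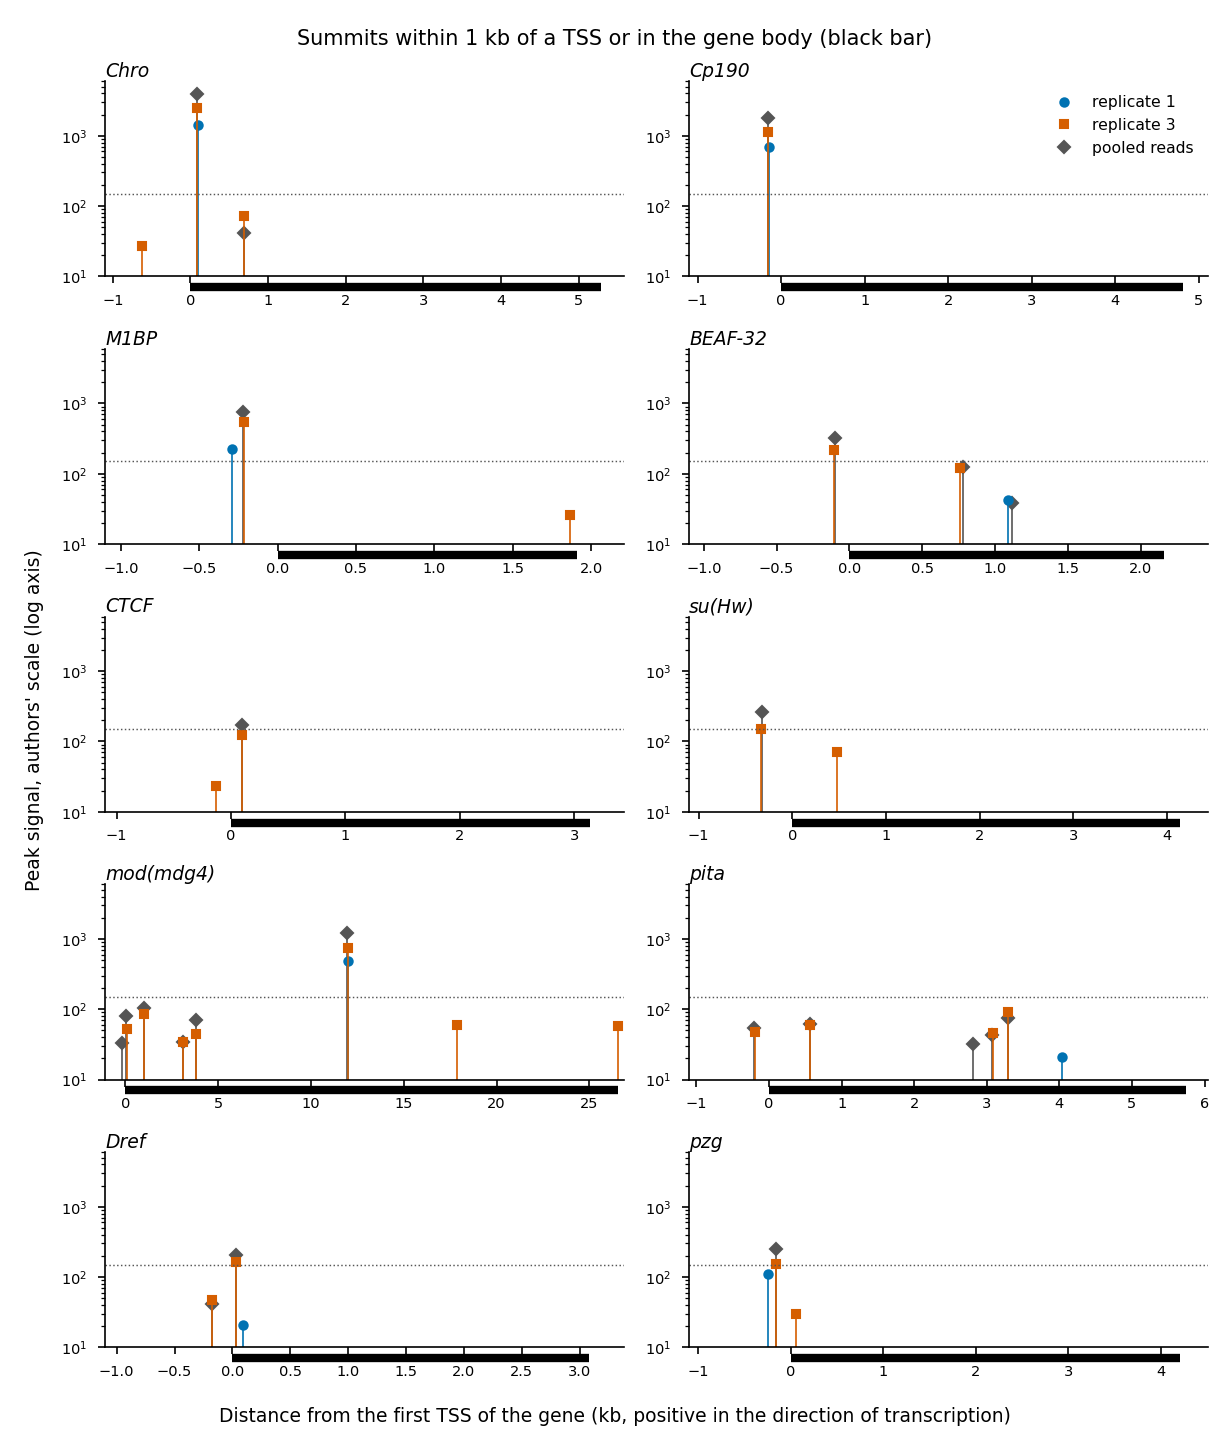
Summits at each of the 10 genes by distance from the gene's first TSS (kb, positive in the direction of transcription), with peak signal on a log axis for replicate 1 (circles), replicate 3 (squares) and pooled reads (diamonds). The black bar is the gene and the dotted line the lowest IDR signal (150); in mod(mdg4) the tall peak stands 11964 bp into the gene, and all peaks of pita stay under the line.

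The 9 peaks spanned a 22.6-fold range of IDR signal. The median of the 9 strongest signals was 320, against 395 over all 3628 protein-coding genes with an IDR peak, and 4 of the 9 lay above that median. Ranked among those genes by their strongest peak, Chro was 8, Cp190 166, mod(mdg4) 434 and M1BP 921, while BEAF-32, su(Hw), pzg, Dref and CTCF were 2175, 2498, 2583, 3037 and 3321. Keeping only IDR peaks at or above the median signal of that list left Chro, Cp190, M1BP, BEAF-32 and mod(mdg4).

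**Figure D3:**
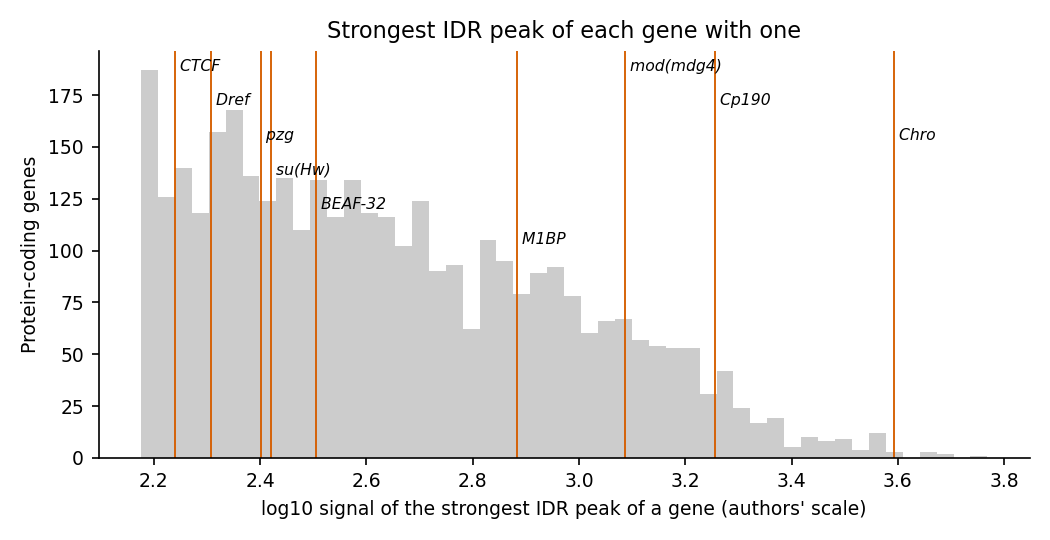
Histogram of the strongest IDR signal (log10, authors' scale) of the 3628 protein-coding genes with an IDR peak, with a vertical line for each of the 9 genes. Chro stands in the upper tail at rank 8, and BEAF-32, su(Hw), pzg, Dref and CTCF lie below the median of 395.

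Genes with the most similar signals in both replicates were sought for the 3 strongest, as the distance between log2 signals over the 2 samples. Nearest to Chro were the small heat shock gene Hsp27 (1274 and 2468 in replicates 1 and 3, distance 0.14) and Art3 (1331 and 2276, distance 0.16). Nearest to Cp190 were bbx and waw, which share 1 peak (689 and 1148, distance 0.019). Nearest to mod(mdg4) were the ferritin genes Fer1HCH and Fer2LCH, which also share 1 peak (478 and 732, distance 0.029).

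Of the 9 IDR peaks, 6 had a counterpart in each replicate list, sharing at least 50% of the shorter of the peaks compared, and the peaks at BEAF-32, CTCF and su(Hw) were found in replicate 3 alone. Over all IDR peaks 91.1% were found in both lists and 5.87% in replicate 3 alone. With 350 as a dividing value, chosen after the signals of the 9 were seen, 86.6% of the 4306 weaker IDR peaks and 97.0% of the 3331 stronger ones were in both. At the 6 genes found in both, replicate 3 had the higher signal each time, by 1.40 times at pzg, 1.55 at mod(mdg4), 1.68 at Cp190, 1.79 at Chro, 2.42 at M1BP and 7.74 at Dref. The value at Dref rests on a replicate 1 signal of 20.9, near the lowest of that list (16.3). The median log2 ratio was 0.79 at these 6 and 1.07 over all 6958 shared IDR peaks, with 10th and 90th percentiles of 0.49 and 1.85. The direction depends on the scale: with each signal divided by the median of its replicate's peaks that overlap the IDR list, the median at the 6 genes was −0.15. The scale of the replicate signals is not stated, so the common shift towards replicate 3 cannot be told apart from a difference in depth, which is unknown.

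**Figure D4:**
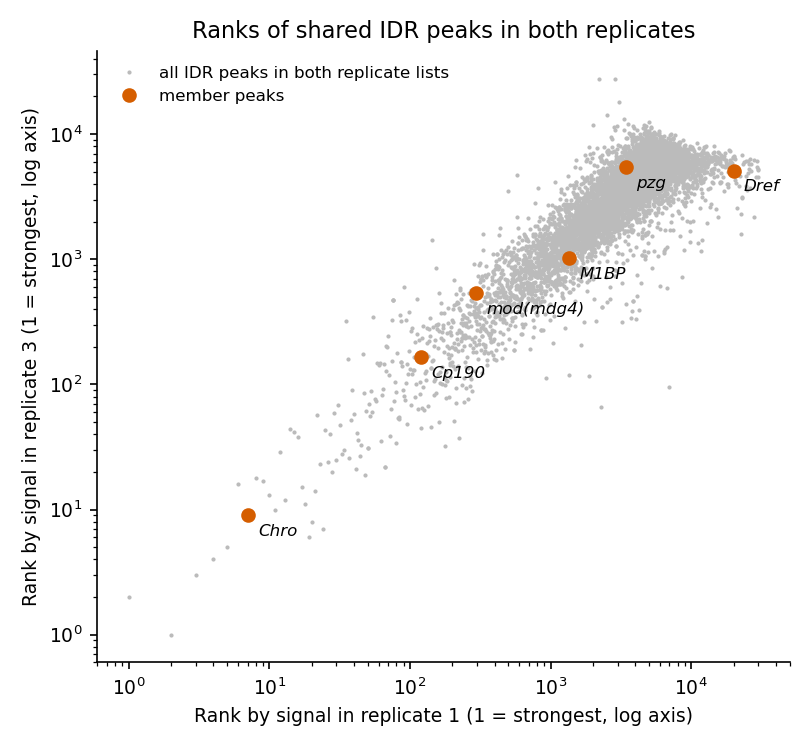
Rank by signal in replicate 1 against rank in replicate 3, both on log axes with 1 as the strongest of 30000, for the 6958 IDR peaks found in both lists (grey) and the 6 such peaks at the genes followed here (orange). Chro, Cp190 and mod(mdg4) lie along the grey cloud, while Dref, at 19976 and 5113, lies at its far right edge.

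Most of the 9 peaks lay between genes transcribed away from each other or between TSSs of both strands. Protein-coding TSSs of both strands stood within 500 bp of the summit at 7 of the 9, all but BEAF-32 and CTCF. Of the 2060 IDR summits within 500 bp of any protein-coding TSS, 32.2% had this arrangement. At Cp190, M1BP and su(Hw) the summit lay in the gap upstream of both genes. At Chro, Dref, pzg and mod(mdg4) it lay 82, 33, 26 and 51 bp inside a transcribed unit on 1 side, which is CG12974 in the case of pzg and pre-mod(mdg4)-E in that of mod(mdg4). In each of these 7 but mod(mdg4), a peak counted for the insulator protein gene may equally be counted for its neighbour. At mod(mdg4) the TSSs near the summit are all those of pre-mod(mdg4) units. Which gene or unit a peak goes with was not tested.

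The base composition differed widely among the 9 summits. Within 50 bp of the summit A + T content was 72.2% ± 10.9 (SD, n = 9 peaks), against a mean of 69.8% over all IDR peaks. It ran from 59.4% at pzg, 63.4% at CTCF and Dref, 67.3% at Chro, 70.3% at su(Hw) and 71.3% at mod(mdg4) to 79.2% at Cp190, 81.2% at BEAF-32 and 94.1% at M1BP. Of 2060 IDR promoter peaks, meaning those within 500 bp of a protein-coding TSS, no other reached the value at M1BP. The excess over flanks centred 200 bp away was 11.6 percentage points ± 13.3 (SD, n = 9 peaks), against 12.2 ± 11.0 (SD, n = 2060) at all IDR promoter peaks. The excess was 37.6 points at M1BP, 24.3 at BEAF-32, 21.8 at Cp190 and 9.90 at mod(mdg4). It was 3.47 at Chro and su(Hw), 2.97 at pzg and 2.48 at Dref, and it was negative at CTCF (−1.49). Chro, the strongest peak, thus had a small excess, as did su(Hw), pzg and Dref among the weaker ones, while the weak peak at BEAF-32 had a large one. At 7 of 9 the summit was richer in A + T than each flank, against 71.8% of IDR promoter peaks. How far read placement in such sequence bears on the peaks was not tested.

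**Figure D5:**
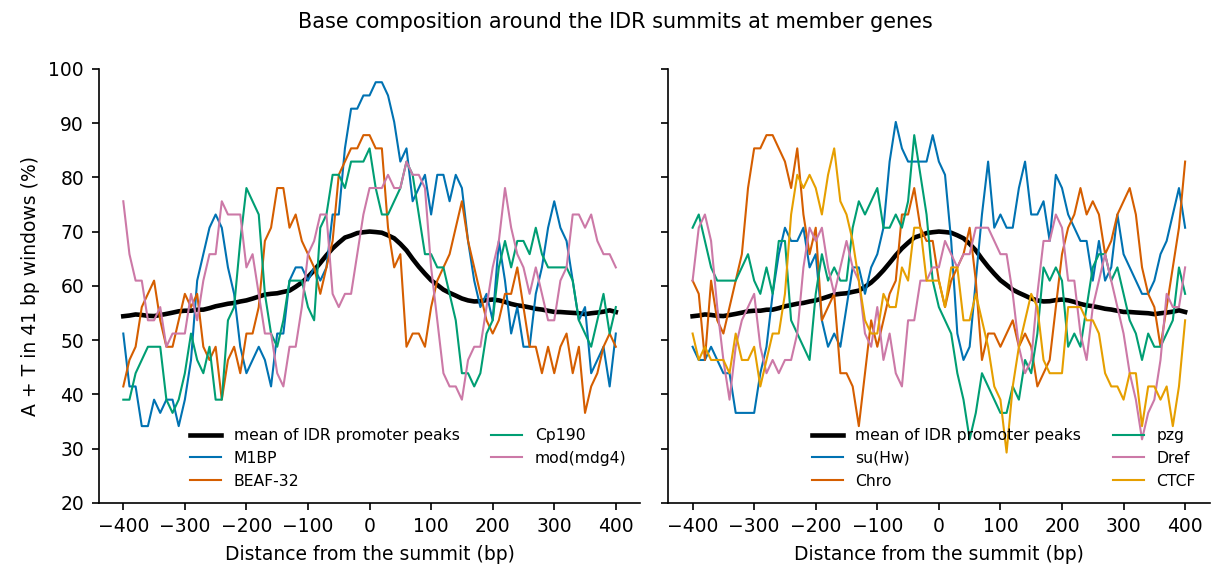
A + T content (%) in 41 bp windows by distance from the IDR summit (bp, positive in the direction of the gene's transcription), for the 4 genes with the largest excess (left) and the other 5 (right), with the mean of 2060 IDR promoter peaks in black. At the summit M1BP, BEAF-32, Cp190, su(Hw) (82.9%) and mod(mdg4) (78.0%) lie above the mean (70.0%), and CTCF, Dref, pzg and Chro lie below it.

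Short motifs, among them those read by BEAF-32, Dref, M1BP and su(Hw), were counted at the 9 summits. Each was searched on both strands within 50 bp of the summit. CGATA was found at 3 of 9 summits, Chro, Dref and pzg, against 13.1% of IDR promoter peaks. The full DRE TATCGATA, which contains CGATA, was found at none of the 9 and at 0.825% of IDR promoter peaks, and motif 1 (GGTCACACT), read by M1BP, at none of the 9 and at 0.194%. TGCATA was found at su(Hw) and mod(mdg4), with 2 matches at the latter, against 8.45% of IDR promoter peaks. GAGAG, the element of the GAGA factor, was found at Dref alone (8.30%). CACTG, included because earlier results of these data had shown it at summits, was found at BEAF-32 and Dref (13.1%), and TATAAA at M1BP and su(Hw) (28.3%). With 9 windows these counts are descriptions. A match is not a bound site, and a window without one says nothing about the protein. In stretches of the printed length directly upstream of all 19253 protein-coding TSSs, TATCGATA was found in 5.05% of 95 bp stretches, as at CTCF, and CGATA in 23.5% of 83 bp stretches, as at Dref.

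Of 24 other genes for insulator, architectural and interband proteins, 7 had an IDR peak in the gene or within 1 kb of a TSS (29.2%), near the 26.0% of all protein-coding genes. The 7 were Trl, which codes for the GAGA factor (strongest signal 3268), the interband kinase gene JIL-1 (1659), row (996), the cohesin gene SA1 (684), the bromodomain gene fs(1)h (554), woc (541) and the topoisomerase gene Top2 (155). A summit within 500 bp of one of their own TSSs was found at 5 of the 24 (20.8%), against 18.0% of all protein-coding genes, with JIL-1 and fs(1)h the 2 of the 7 without one. No IDR peak was found at the insulator genes dwg, Ibf1, Ibf2, ZIPIC, Elba1, Elba2, Elba3 and insv, at Clamp, HP1c, l(3)mbt and Mgtor, or at the cohesin and condensin genes vtd, SMC1, SMC3, Nipped-B and Cap-D3.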

How the data were processed

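Anti-GFP ChIP-seq of whole pupae was deposited as 4 narrowPeak lists on dm6, per the deposited readme texts: 1 per replicate, 1 from pooled reads and the optimal IDR list derived from the other 3. The replicate and pooled lists were made with a control that was not analysed here. Aligner and peak caller were not given in the sources used here. The deposited values are a peak signal on the authors' unstated scale, a −log10 q-value and a summit offset, which equalled the peak width in 3 IDR peaks, where the last base was taken.

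Ensembl release 115 gave the genes and TSSs of 6 chromosomes, and the RefSeq release 6 assembly gave the bases; both use dm6 coordinates. Chromosome names carry a prefix in the lists only. Signals were compared within a list, and between replicates as ratios and ranks. A + T and motifs were counted in 101 bp windows. Python 3.11.15, NumPy 2.4.6, pandas 2.3.3 and matplotlib 3.10.9 were used, and the assignment of peaks to genes was checked on made-up peaks.

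The genes, the list of 24 others and the motifs were chosen with earlier results of these data known, and no tests were run. Named are all 10 genes with every IDR peak, pooled and replicate peaks where no IDR peak exists, neighbours within 500 bp of a summit, the listed genes with an IDR peak, and the 2 genes nearest in signal to each of the 3 strongest. The weaker pooled and replicate peaks of the other genes, the 17 listed genes without an IDR peak and TSSs farther away were named outside this rule, after their values were seen. Of the listed symbols, 1 was replaced by its current form, Mgtor. Alternatives varied the window, the placement, the list, the overlap and the sequence windows.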

Additional observations from a re-analysis of the deposited data

How the results depend on the processing

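The number of genes with an IDR peak, 9 of 10, was 9 with TSS windows of 500 bp (24.4% of all protein-coding genes) and 2 kb (30.5%) and with any base of the peak (26.9%), and 8 without the gene body (21.8%), where mod(mdg4) was lost. With IDR peaks at or above the median signal only, 5 genes with 5 peaks remained, 4 of them with a promoter peak, and 2234 of all protein-coding genes (16.0%) had an IDR peak. Leaving out a replicate gave 5 to 9 genes with 5 to 10 peaks, 4 to 8 with a promoter peak, and 3433 to 3640 of all protein-coding genes, and the low value for the 10 genes was always that without replicate 3. Promoter windows of 250 and 1000 bp gave 7 and 8 genes, the latter against 21.8% of all protein-coding genes. For the other promoter counts in this section the share of all genes was not computed, and nothing is read from them. Peaks found in both replicates numbered 6 with an overlap of 1 bp, 4 with 90% and 5 among the strongest peaks of each replicate. The share over all IDR peaks was not computed under these settings, so nothing about the genes is read from these counts. The median log2 ratio of replicate 3 over replicate 1 was −0.15 once each signal was divided by the median of its replicate's peaks that overlap the IDR list, so its sign rests on the scale of the lists. The mean A + T excess at the summit lay between 9.34 and 18.1 points in other windows. Read depth, and so the smallest signal that could be detected in replicate 1, is unknown. No paired analysis was possible because both samples form a single group.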
